A study of Mus musculus with 12 samples.

Results

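Counts of 9 genes of the T cell receptor complex and of lymphocyte signalling were described in mouse muscle: Cd3d, Cd3e, Cd3g, Cd247, Lck, Zap70, Il2rg, Cxcl16 and Ptprc. They were chosen by name, with earlier results of these data known, from the 22607 genes of the count table. All 9 passed the filter on low counts, which kept 16007 genes. RNA came from tibialis anterior, a muscle of the lower leg, of C57BL/6 male mice aged 13 weeks. Each muscle was transduced either with a GFP vector, called empty by the submitters, or with a vector expressing Crtc2, a partner protein that helps the factor CREB switch on its targets. The mice ate freely (fed) or had 3 rounds of fasting on alternate days (ADF). This gave 4 groups of 3 libraries: the fed groups with either vector (fed GFP, fed Crtc2) and the fasted groups with either vector (ADF GFP, ADF Crtc2). Every group therefore carried a vector, and no group without one was analysed here. The labels give no promoter or vector type, and they do not say that libraries of a group came from separate animals. What the p-values measure is then the spread among libraries, and this may be technical.

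T cells recognise antigen through a receptor whose antigen-binding chains are joined to the CD3 delta, epsilon, gamma and zeta chains, encoded by Cd3d, Cd3e, Cd3g and Cd247. When the receptor is engaged, the kinase Lck phosphorylates the tails of these chains, the kinase Zap70 docks on them, and the phosphatase CD45, encoded by Ptprc, keeps Lck in a state ready to act. Il2rg encodes the common gamma chain shared by the receptors for several interleukins, and Cxcl16 encodes a chemokine that attracts T cells and natural killer T cells through its receptor Cxcr6. Muscle fibres are not a usual source of the CD3 delta, epsilon and gamma chains, which mark T cells, natural killer T cells included. Cxcl16 is also made by macrophages and vessel cells.

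All 9 genes had their lowest mean level in ADF Crtc2 muscle. Cd3g was at 0 in all 3 of those libraries, and together with Il2rg and Cxcl16 it was lower there by the test both against ADF GFP muscle and against fed Crtc2 muscle. The remaining 6 genes did not pass the test in either comparison. In ADF GFP and fed Crtc2 muscle none of the 9 genes differed by the test from fed GFP muscle. Because the RNA is from whole muscle, fewer cells of a type and less RNA per cell cannot be told apart. Levels are given as read counts or as CPM, the count scaled to a common library size by the trimmed mean of M values (TMM), as mean ± SD over 3 libraries.

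Library totals ranged from 24232450 to 34610417 counts, with 14313 to 17226 genes detected, so that 3 counts corresponded to 0.0814 to 0.13 CPM. Crtc2 had 461, 540 and 871 counts in ADF GFP and 992, 1027 and 883 in ADF Crtc2 muscle, and 742, 509 and 713 in fed GFP against 1659, 1883 and 2105 in fed Crtc2 muscle. Its level was 2.85-fold higher with the Crtc2 vector in fed muscle and 1.93-fold higher under ADF, with no overlap between groups, although neither difference passed the test (adjusted p = 0.1336 and 0.1269). The 10 muscle fibre markers, such as Acta1 and Ckm, summed to between 129700 and 229800 CPM in every library. Replicate 1 of fed Crtc2 muscle stood apart on the second principal component, and its value for Cd3d, Cd3e and Cd247 was 0. Even numbers made up 68.9% to 74.7% of a library's counts from 2 to 21, so low counts may not be single fragments, and the cause was not tested.

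Cd3g, Cd3d and Cd3e are neighbours on chromosome 9. In the GRCm38 build, Cd3g spans chr9:44969572-44980431 on the minus strand, Cd3d spans chr9:44981786-44987339 on the plus strand and Cd3e spans chr9:44998740-45009627 on the minus strand. The starts of Cd3g and Cd3d, which point away from each other, lie 1355 bases apart, and those of Cd3d and Cd3e 27841 bases apart. Cd247 (chr1:165788681-165877277, plus), Zap70 (chr1:36761798-36782818, plus) and Ptprc (chr1:138062861-138175708, minus) are on chromosome 1, far from each other. Lck is at chr4:129548344-129573641 (minus), Il2rg at chrX:101264378-101268255 (minus) and Cxcl16 at chr11:70453983-70459984 (minus).

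The 250 bases before a start were read from RefSeq promoters of GRCm38.p6, in which 8 of the 9 genes were found with 12 promoters: 3 for Zap70, 2 each for Lck and for Ptprc, and 1 each for Cd3d, Cd3e, Cd3g, Cd247 and Il2rg. Those of the CD3 genes are shown because these neighbours include the transcripts at or near 0 in ADF Crtc2 muscle, that of Zap70 because it holds the full cAMP response element, the sequence CREB binds, and that of Il2rg because this gene fell in both comparisons. Capitals mark matches on either strand to TGACGTCA (the full element), TGACG (its core), AGGAAG (a sequence ETS factors can bind) and CAGGTG (an E-box). Other sequences that ETS factors can bind were not searched for. Each sequence runs 5′ to 3′ along its gene and ends at the base before the start.
Cd3g, chr9:44980432-44980681, minus strand: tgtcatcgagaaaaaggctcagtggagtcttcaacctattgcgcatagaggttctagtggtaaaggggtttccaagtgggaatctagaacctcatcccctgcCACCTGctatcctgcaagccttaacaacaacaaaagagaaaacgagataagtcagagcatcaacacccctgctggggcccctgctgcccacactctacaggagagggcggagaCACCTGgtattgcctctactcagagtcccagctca
Cd3d, chr9:44981536-44981785, plus strand: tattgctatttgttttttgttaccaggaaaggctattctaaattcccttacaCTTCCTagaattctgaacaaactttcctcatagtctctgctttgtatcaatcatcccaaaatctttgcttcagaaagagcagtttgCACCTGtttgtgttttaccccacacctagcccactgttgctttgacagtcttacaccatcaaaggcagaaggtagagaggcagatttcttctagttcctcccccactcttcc
Cd3e, chr9:45009612-45009861, minus strand: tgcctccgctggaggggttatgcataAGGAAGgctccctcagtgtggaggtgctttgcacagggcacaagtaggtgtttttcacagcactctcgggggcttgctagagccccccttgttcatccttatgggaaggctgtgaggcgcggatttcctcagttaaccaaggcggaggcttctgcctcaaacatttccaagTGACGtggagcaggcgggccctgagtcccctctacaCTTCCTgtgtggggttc
Zap70, chr1:36761548-36761797, plus strand: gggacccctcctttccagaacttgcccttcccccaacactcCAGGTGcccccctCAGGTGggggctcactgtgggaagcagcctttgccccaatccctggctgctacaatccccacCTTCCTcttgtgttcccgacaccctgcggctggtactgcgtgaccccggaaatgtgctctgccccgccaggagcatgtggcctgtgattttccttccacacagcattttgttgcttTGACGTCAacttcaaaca
Il2rg, chrX:101268256-101268505, minus strand: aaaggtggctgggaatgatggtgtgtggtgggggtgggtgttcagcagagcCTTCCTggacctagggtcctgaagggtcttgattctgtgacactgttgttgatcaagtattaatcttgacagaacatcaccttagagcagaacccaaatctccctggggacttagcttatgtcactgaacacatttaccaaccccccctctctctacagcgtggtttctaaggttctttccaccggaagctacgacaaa

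Of the 12 promoters, 1 held the full element TGACGTCA, that of Zap70, with its first base 18 bases before the start, beside 1.55% of all 32851 promoters. The core TGACG, which also lies inside the full element on both strands, was in 2 of the 12, the Zap70 promoter and that of Cd3e at 53 bases before the start, against 17.8% of all promoters. AGGAAG was in 10 of the 12 (29.5% of all promoters) and the E-box CAGGTG in 6 of the 12 (17.2%). Several of the 12 belong to the same gene, and those of Ptprc overlap, so they are not independent. Cd3g had E-boxes 148 and 35 bases before its start and no match to AGGAAG or TGACG. A match describes the letters only, and no match says only that they are not in this window.

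Cd3g, the CD3 gamma chain, had 139, 147 and 99 counts in fed GFP muscle, 83, 85 and 346 in fed Crtc2, 189, 80 and 151 in ADF GFP, and 0, 0 and 0 in ADF Crtc2 muscle. Its mean level was 4.60 ± 1.12, 6.23 ± 5.71 and 4.86 ± 2.93 CPM in the first 3 groups, which overlapped. All 9 libraries of those groups held at least 80 counts, and the ADF Crtc2 libraries none. With a floor of 3 counts per library for the group at 0, the level was at least 41.1-fold lower than in ADF GFP muscle (adjusted p = 0.01076) and at least 52.7-fold lower than in fed Crtc2 muscle (adjusted p = 0.0005697). The first of these did not pass without ADF Crtc2 replicate 1 (adjusted p = 0.05961), whereas the second passed whichever of the 6 libraries was left out, with its bound at 24.8-fold without fed Crtc2 replicate 3.

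Cd3d, the delta chain, had 123, 72 and 40 counts in fed GFP muscle, 0, 0 and 190 in fed Crtc2, 315, 66 and 187 in ADF GFP, and 0, 1 and 0 in ADF Crtc2 muscle. One library held all of its counts in fed Crtc2 muscle, which therefore overlapped with ADF Crtc2 muscle, whereas every ADF GFP library lay above the ADF Crtc2 libraries. The 568 counts in ADF GFP against 1 in ADF Crtc2 muscle gave a ratio of 465 after scaling for depth, with a 95% exact interval for counting error of 83.1 to 18380. Against fed Crtc2 muscle the ratio was 171 (30.4 to 6803). Neither difference passed edgeR's quasi-likelihood test, in which the fitted changes were -8.61 ± 2.45 (log2 fold change ± SE, adjusted p = 0.1181) and -7.07 ± 2.33 (adjusted p = 0.05502). Without fed Crtc2 replicate 3, the second fitted change turned to 1.99. DESeq2 gave adjusted p = 0.0009569 and 0.003181 for the same differences.

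Cd3e, the epsilon chain, had 157, 91 and 0 counts in fed GFP muscle, 0, 22 and 99 in fed Crtc2, 23, 84 and 199 in ADF GFP, and 0, 0 and 19 in ADF Crtc2 muscle. Libraries at 0 thus occurred in 3 groups, and only ADF GFP muscle had counts in every library. Its mean was 13.2-fold lower in ADF Crtc2 than in ADF GFP muscle, at 0.225 ± 0.39 against 2.97 ± 2.24 CPM, with no overlap but an adjusted p of 0.5846. Against fed Crtc2 muscle, at 1.45 ± 1.95 CPM, the values overlapped (adjusted p = 0.5304).

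Cd247, the zeta chain, which carries most of the phosphorylation sites of the receptor, had 420, 189 and 452 counts in fed GFP muscle, 0, 259 and 197 in fed Crtc2, 65, 147 and 243 in ADF GFP, and 48, 105 and 59 in ADF Crtc2 muscle. Every ADF Crtc2 library had counts, and these overlapped with the ADF GFP values, at 2.77 ± 1.19 against 4.59 ± 1.91 CPM (log2 fold change -0.73 ± 1.05, adjusted p = 0.9362). Of its exon bases, 56.4% are shared with Pou2f1, a broadly expressed transcription factor gene on the opposite strand, with 9.12 CPM in ADF GFP and 3.48 in ADF Crtc2 muscle. The strand setting of the counting is not given in the sources used here, so reads of Cd247 and Pou2f1 may not be separated.

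**Figure D1:**
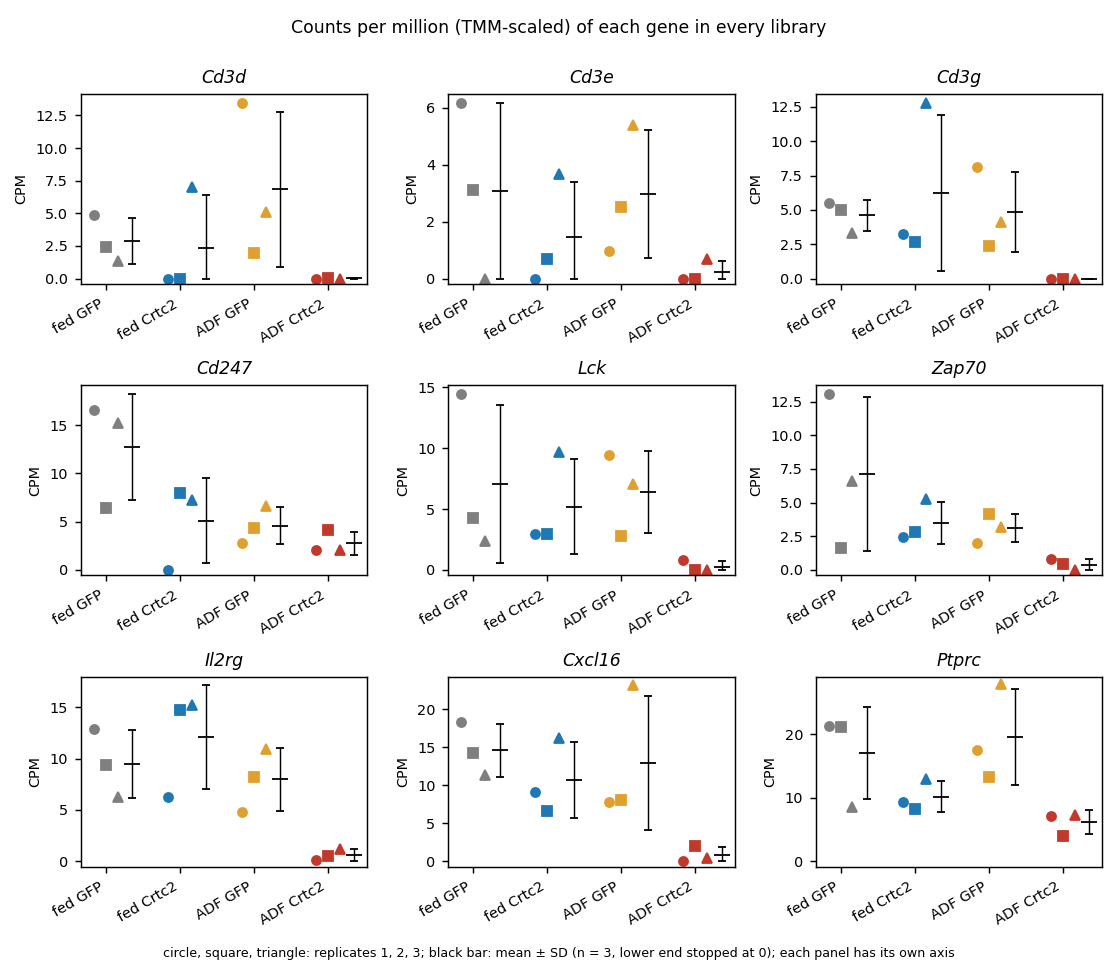
Level of each of the 9 genes in every library, in CPM (TMM-scaled, each panel with its own axis), by group. Symbols are replicates 1 to 3, and the bar beside them is the mean ± SD of 3 libraries. For Cd3g all 3 ADF Crtc2 libraries are at 0, and for Cd247 alone the ADF Crtc2 libraries overlap with those of ADF GFP muscle.

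Lck, the kinase that acts first at the receptor, had 367, 126 and 70 counts in fed GFP muscle, 76, 95 and 262 in fed Crtc2, 220, 92 and 259 in ADF GFP, and 18, 0 and 0 in ADF Crtc2 muscle. The ADF Crtc2 libraries lay below all 9 others. The mean there, 0.259 ± 0.449 CPM, was 24.7-fold lower than the 6.40 ± 3.38 CPM of ADF GFP muscle and 20.1-fold lower than the 5.20 ± 3.89 CPM of fed Crtc2 muscle. The fitted changes were -4.63 ± 1.43 (adjusted p = 0.1667) and -4.33 ± 1.41 (adjusted p = 0.05181) on the log2 scale. ADF Crtc2 replicate 1 held all 18 counts, and without it the adjusted p was 0.04509 and 0.003171. DESeq2 gave 0.007181 and 0.003678 with all libraries.

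Zap70, the kinase that binds the phosphorylated CD3 chains, had 332, 48 and 197 counts in fed GFP muscle, 62, 90 and 143 in fed Crtc2, 47, 138 and 117 in ADF GFP, and 18, 11 and 0 in ADF Crtc2 muscle. Again the ADF Crtc2 libraries were the lowest 3 of the 12. The mean of 0.404 ± 0.39 CPM was 7.69-fold lower than in ADF GFP muscle (log2 fold change -2.94 ± 1.34, adjusted p = 0.4152) and 8.66-fold lower than in fed Crtc2 muscle (-3.11 ± 1.35, adjusted p = 0.1584). DESeq2 passed the second difference only (adjusted p = 0.02634).

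Ptprc, which encodes CD45 on the surface of nearly all white blood cells, had 541, 623 and 256 counts in fed GFP muscle, 240, 266 and 349 in fed Crtc2, 411, 445 and 1029 in ADF GFP, and 166, 101 and 205 in ADF Crtc2 muscle. No library was near 0, and the ADF Crtc2 libraries were nevertheless the lowest of all in CPM. The mean was 6.15 ± 1.87 CPM there, 3.19-fold lower than the 19.6 ± 7.52 CPM of ADF GFP muscle and 1.66-fold lower than the 10.2 ± 2.45 CPM of fed Crtc2 muscle. The fitted log2 changes were -1.67 ± 0.48 (adjusted p = 0.125) and -0.73 ± 0.47 (adjusted p = 0.3768). The first passed with DESeq2 (adjusted p = 0.03069) and when the spread was estimated from the ADF groups alone (0.03394).

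Il2rg, the common gamma chain, had 327, 276 and 185 counts in fed GFP muscle, 160, 476 and 412 in fed Crtc2, 112, 273 and 403 in ADF GFP, and 3, 12 and 35 in ADF Crtc2 muscle. The highest ADF Crtc2 library held fewer counts than the lowest of the other 9. The level fell from 7.97 ± 3.08 CPM in ADF GFP to 0.616 ± 0.571 in ADF Crtc2 muscle, a 12.9-fold difference (log2 fold change -3.67 ± 0.79, adjusted p = 0.02984). Against fed Crtc2 muscle, at 12.1 ± 5.05 CPM, it was 19.6-fold lower (-4.27 ± 0.81, adjusted p = 0.001222). The call against fed Crtc2 muscle was made whichever of its 6 libraries was left out. Without ADF Crtc2 replicate 3 the folds were 26.4 and 40.0. The call against ADF GFP muscle was lost without ADF GFP replicate 1, 2 or 3 (adjusted p = 0.05134, 0.0678 and 0.1615) and without ADF Crtc2 replicate 1 or 2 (0.1523 and 0.1069). Of its exon bases, 30.5% are shared with Gm20489, a gene model on the same strand that has no counts of its own here.

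Cxcl16, the chemokine, had 464, 418 and 336 counts in fed GFP muscle, 233, 213 and 439 in fed Crtc2, 181, 269 and 853 in ADF GFP, and 1, 52 and 11 in ADF Crtc2 muscle. Its ADF Crtc2 values varied widely among themselves but stayed below the other 9 libraries. The level was 0.829 ± 1.08 CPM against 13.0 ± 8.81 in ADF GFP muscle, 15.7-fold lower (log2 fold change -3.96 ± 0.86, adjusted p = 0.03094). Against fed Crtc2 muscle, at 10.7 ± 5.01 CPM, it was 12.8-fold lower (-3.67 ± 0.85, adjusted p = 0.006626), and this call was made whichever of the 6 libraries was left out. The call against ADF GFP muscle was lost without ADF GFP replicate 1 or 3 (adjusted p = 0.05134 and 0.2146), without ADF Crtc2 replicate 1 or 3 (0.1187 and 0.153), and with the spread of the ADF groups alone (0.05885). It was also lost with the replicate number as a block. Without ADF Crtc2 replicate 2 the folds were 59.8 and 49.0, and without ADF GFP replicate 3 the first was 9.52. Of the exon bases of Cxcl16, 18.3% are shared with Zmynd15 on the opposite strand, which was at 0 in all ADF Crtc2 libraries.

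Levels were compared between genes only after division by exon length, taken as the merged length of every annotated exon of a gene. This length was 18.3 kb for Ptprc and 4.08 kb for Cd3e. A transcript that leaves out some of these exons is shorter, so a gene may be set too low in this order. In fed GFP muscle the divided levels ran from 0.758 CPM per kb for Cd3e and 0.93 for Ptprc, through 1.41 for Cd3g and 1.59 for Cd3d, to 3.98 for Il2rg and 4.83 for Cxcl16. Cd247, Lck and Zap70 lay together in between, at 2.39, 2.4 and 2.38 CPM per kb, and no neighbours in this order differed by more than the sum of their SDs. In ADF Crtc2 muscle the highest was Cd247 at 0.52 CPM per kb, followed by Ptprc at 0.336, Cxcl16 at 0.275 and Il2rg at 0.258, and Cd3g was at 0. Il2rg and Cxcl16, which led in the other 3 groups apart from Cd3d under ADF GFP, were thus below Cd247 and Ptprc there.

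Under ADF, 3 of the 9 genes were lower with the Crtc2 vector, Cd3g, Il2rg and Cxcl16, where 0.65% of all genes tested were lower (104 of 16007) and 0.725% differed in either direction. Groups did not overlap for 8 of the 9 genes, all except Cd247, and the same was true in this direction of 11.8% of all genes. The median log2 fold change of the 9 genes was -3.68, with Cd3g at its bound or at its fitted value, beside -0.0124 over all genes tested, and all 9 values were below 0. An unadjusted p under 0.05 in the lower direction was found for 7 of the 9 and for 7.23% of all genes. DESeq2 called 6 of the 9 genes lower, adding Cd3d, Lck and Ptprc, and 430 lower and 126 higher of all genes.

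In muscle with the Crtc2 vector, the same 3 genes were lower under ADF than in the fed state, where 4.68% of all genes were lower and 11% differed. In this comparison 6 of the 9 genes did not overlap between groups, Cd3g, Lck, Zap70, Il2rg, Cxcl16 and Ptprc, against 15.7% of all genes in this direction. The median of the 9 genes was -3.67, beside -0.131 over all genes. At an unadjusted p under 0.05, 6 of the 9 and 13.1% of all genes were lower. DESeq2 called 6 of the 9 lower, adding Cd3d, Lck and Zap70, and 1354 lower and 1151 higher of all genes. Scaling by library totals instead of TMM moved the median of all genes to -0.43 and the split of calls from 1009 higher and 749 lower to 511 and 1234, and it added Lck to the genes called (adjusted p = 0.0432). Both comparisons use the same ADF Crtc2 libraries, so their values are not independent.

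In the other 2 comparisons no gene of the 9 was called and the groups overlapped for every one. In fed muscle 3.84% of all genes were lower and 4.7% higher without overlap between vectors, and in GFP muscle 11.3% and 14.3% were so between diets. With the Crtc2 vector in fed muscle, log2 fold changes ran from -1.32 ± 1.06 for Cd247 to 0.44 ± 1.06 for Cd3g, with a median of -0.46. There edgeR called 0% of all genes, 5.44% had an unadjusted p under 0.05, none of the 9 among them, and DESeq2 called 64 genes and none of the 9. ADF against the fed state in GFP muscle gave values from -1.47 ± 1.06 for Cd247 to 1.25 ± 1.7 for Cd3d, with a median of -0.14, where 7.12% of all genes were called. None of the 9 genes had an unadjusted p under 0.05 there, beside 19.8% of all genes, or was called by DESeq2. Standard errors in these comparisons ran from 0.47 for Ptprc to 2.09 for Cd3e. A change of a few fold in either direction could therefore be missed, least so for Ptprc. For genes with a large SE on this log2 scale, such as Cd3e and Cd3d, a far larger change could be missed.

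The difference between the Crtc2 response under ADF and that in fed muscle, tested as an interaction, passed for 0% of genes in edgeR. Of all genes, 5.06% were lower at an unadjusted p under 0.05, and 5 of the 9 were, Cd3d, Cd3g, Lck, Il2rg and Cxcl16. For Cd3g the unadjusted p was 5.48e-05 and the adjusted p 0.1744, and for Il2rg 0.000915 and 0.4577. DESeq2 called 111 genes in this test, Cd3g (adjusted p = 2.01e-05) and Il2rg (0.01783) among them. For Cd3g and Il2rg the difference between diets in the Crtc2 response passed with DESeq2 and not in the edgeR fit. Without the filter on low counts, edgeR passed Cd3g (adjusted p = 0.004077).

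**Figure D2:**
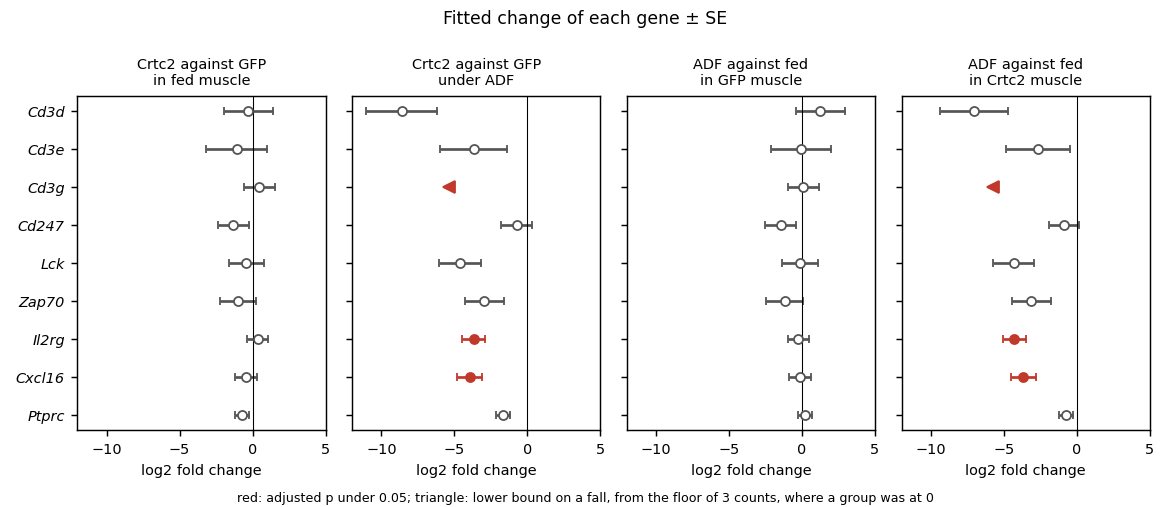
Fitted log2 fold change of each of the 9 genes in the 4 comparisons between groups, with bars of 1 SE. Red marks an adjusted p under 0.05, and the triangle for Cd3g is the bound set by the floor of 3 counts, at least 41.1-fold lower against ADF GFP and at least 52.7-fold lower against fed Crtc2 muscle.

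Values of 0 were common among these genes in ADF Crtc2 muscle. Of the 27 values of the 9 genes in 3 libraries, 10 were 0 in ADF Crtc2 muscle, 4 in fed Crtc2, 1 in fed GFP and 0 in ADF GFP muscle. Among the 5221 other genes with a mean level in the same range, 1.93 to 13.2 CPM, 7.14%, 7.72% and 4.56% were at 0 in the ADF Crtc2 libraries, and 3.29%, 0.728% and 1.26% in the ADF GFP libraries. Fed GFP replicates 1 and 3 and fed Crtc2 replicate 1 had 8.12%, 7.09% and 10.5% of these genes at 0. The part of these losses of low genes in the results was not tested.

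The other chains and coreceptors of the T cell receptor complex, such as Trac, Cd4, Cd8a and Thy1, gave a similar picture with fewer calls. All 13 listed genes were tested, all 13 were below 0 with the Crtc2 vector under ADF, and the median was -4.41, or -3.76 when bounds stood in for genes at 0. None passed the test in edgeR, 9 had an unadjusted p under 0.05 (beside 7.23% of all genes), and DESeq2 called 6. Trac, the constant part of the receptor alpha chain and named here after its values were seen, had 219, 142 and 545 counts in ADF GFP and 4, 2 and 27 in ADF Crtc2 muscle. Thy1, the most abundant of the list and also made outside T cells, had 943, 950 and 1544 counts against 235, 280 and 291 (log2 fold change -1.81 ± 0.43, adjusted p = 0.05261).

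Cd5, a receptor that dampens T cell signalling, was at 0 in all ADF Crtc2 libraries, as were Cd8b1, Ctla4, Icos and Trbc1. Unlike Cd5, these were also at 0 in some libraries of other groups, though not in all libraries of any. Ctla4 was so in 2 of 3 ADF GFP libraries and Trbc1 in 2 of 3 fed Crtc2 libraries. Trbc1 and Trbc2 are near-identical copies, and how reads were split between them is uncertain. The counts of Cd5 were 14, 51 and 127 in fed Crtc2 muscle, so that it was at least 19.2-fold lower under ADF (adjusted p = 0.01152). Without fed Crtc2 replicate 3 this bound was 8.98-fold (adjusted p = 0.04119). Cd5 was the one gene of the 13 called in that comparison, beside 4.68% of all genes lower, and the list's median was -3.46. In ADF GFP muscle Cd5 had 94, 142 and 124 counts, which is at least 32.8-fold higher than in ADF Crtc2 muscle (adjusted p = 0.05199). The summed level of the 13 genes was 15.6 to 15.8 CPM in the ADF Crtc2 libraries, 53.1 to 112 in ADF GFP, 20.3 to 108 in fed Crtc2 and 63.0 to 170 in fed GFP muscle.

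Further down the pathway, 28 adaptors and effectors of receptor signalling were tested. With the Crtc2 vector under ADF, 24 of the 28 were below 0 with a median of -1.68 and none was called by edgeR, while 13 had an unadjusted p under 0.05 in the lower direction (beside 7.23% of all genes) and DESeq2 called 6. Prkcq, the kinase of this list with the highest level and abundant in muscle fibres themselves, had a log2 fold change of 0.29 ± 0.21. In Crtc2 muscle under ADF against fed, Nfatc2, a transcription factor activated by calcium, fell (-1.33 ± 0.36, adjusted p = 0.01698). Its call was lost without ADF Crtc2 replicate 2 or fed Crtc2 replicate 2 (adjusted p = 0.07728 and 0.06967).

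Of 18 listed partners of Il2rg in the common gamma chain axis, 15 were tested. With the Crtc2 vector under ADF, 12 of the 15 were below 0 with a median of -0.46, and 6 were lower without overlap between groups (beside 11.8% of all genes). None was called by edgeR, 3 had an unadjusted p under 0.05 in the lower direction (beside 7.23% of all genes), and DESeq2 called 2. Il2rb, which pairs with Il2rg in the receptors for interleukins 2 and 15 and was named after its values were seen, had 258, 181 and 377 counts in ADF GFP and 4, 26 and 0 in ADF Crtc2 muscle. Jak3, the kinase bound to the gamma chain, also named after its values were seen, had 122, 212 and 287 against 86, 126 and 327 counts, which overlapped. In Crtc2 muscle under ADF against fed, 3 of the 15 fell and 1 rose, beside 4.68% of all genes lower and 11% called in either direction. Socs1, an inhibitor of this signalling, had 587, 121 and 142 counts in fed and 0, 0 and 4 in ADF Crtc2 muscle (-7.62 ± 1.4, adjusted p = 0.0008547), and its fitted change was -6.39 without fed Crtc2 replicate 1. Cish, another inhibitor, had 2486, 467 and 695 counts in fed and 237, 26 and 75 in ADF Crtc2 muscle (-3.3 ± 0.96, adjusted p = 0.0474). The highest of these was in fed Crtc2 replicate 1, the library that stood apart, and without it the fold fell from 9.86 to 4.33 (adjusted p = 0.12). The Cish call was also lost without fed Crtc2 replicate 3 or ADF Crtc2 replicate 2 or 3 (adjusted p = 0.05182, 0.1005 and 0.1628), and without ADF Crtc2 replicate 1 the fold was 24.8. Il15ra fell (-1.51 ± 0.41, adjusted p = 0.01873), a call lost without ADF Crtc2 replicate 2 or 3 or fed Crtc2 replicate 1. Stat5b rose (0.63 ± 0.2, adjusted p = 0.0455), a call lost without any one of those libraries, ADF Crtc2 replicate 1 or fed Crtc2 replicate 2. In GFP muscle ADF also lowered Il15ra (-1.86 ± 0.41, adjusted p = 0.006874) and raised Stat5b (0.77 ± 0.2, 0.01939). The first was lost without ADF GFP replicate 1 or 2 (adjusted p = 0.05006 and 0.05062) and was 5.75-fold without replicate 3, and the second was lost without replicate 1 or 3 of either GFP group (0.0539 to 0.1045).

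For the chemokines, 12 of 14 listed genes were tested. All 12 were below 0 with the Crtc2 vector under ADF, with a median of -1.91 and no call by edgeR, while 8 had an unadjusted p under 0.05 (beside 7.23% of all genes) and DESeq2 called 2. Cxcr6, the receptor of Cxcl16, named after its values were seen, had 134, 34 and 27 counts in ADF GFP, 20, 64 and 50 in fed Crtc2 and 0, 0 and 0 in ADF Crtc2 muscle. It was at least 21.1-fold lower than in ADF GFP muscle (adjusted p = 0.2015). Cxcl9, a chemokine induced by interferon gamma, had 329, 611 and 2363 counts in fed and 203, 303 and 255 in ADF Crtc2 muscle (-2.0 ± 0.58, adjusted p = 0.0384). This was the one call among the 12 tested in that comparison, beside 4.68% of all genes lower. Without fed Crtc2 replicate 3 the 4.0-fold difference was 1.6-fold (adjusted p = 0.3124), and the call was also lost without any one ADF Crtc2 library (0.08736 to 0.1296). Adam10, the protease that sheds Cxcl16 from cells, named after its values were seen, had 632, 742 and 834 counts in ADF GFP and 594, 347 and 643 in ADF Crtc2 muscle.

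**Figure D3:**
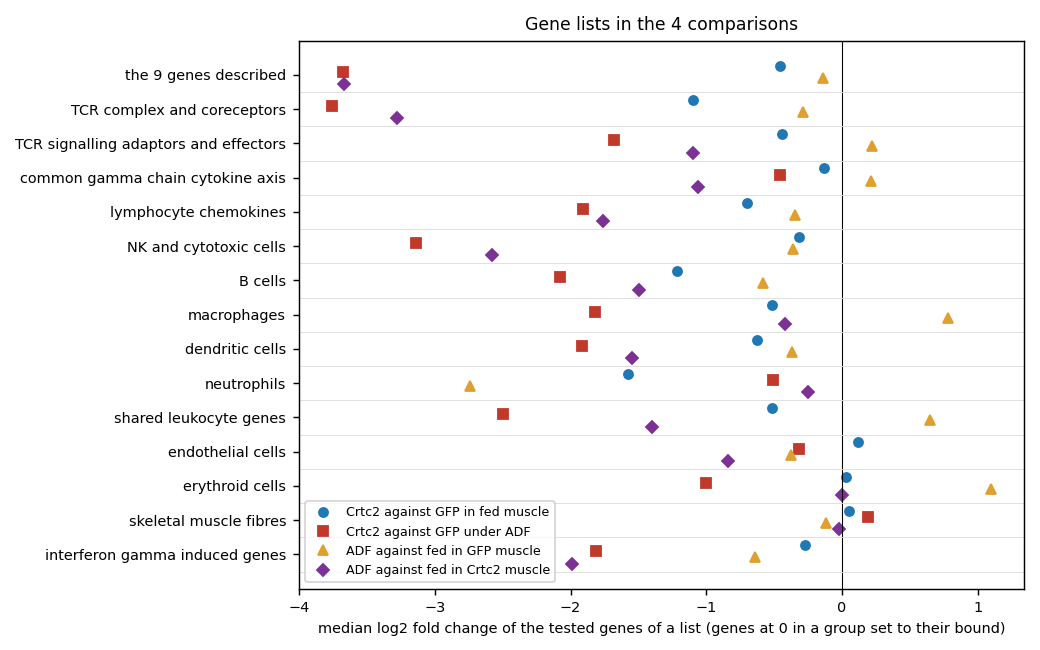
Median log2 fold change of the tested genes of each list in the 4 comparisons, with a gene at 0 in a whole group set to its bound. For the 9 genes described it is -3.68 and -3.67 in the comparisons that involve ADF Crtc2 muscle. It is -0.46 for the Crtc2 vector in fed muscle and -0.14 for ADF in GFP muscle. For skeletal muscle fibres it is near 0 in all 4.

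The summed markers of natural killer and cytotoxic cells and of B cells were also lowest in ADF Crtc2 muscle. Of the 10 markers of natural killer and cytotoxic cells, which share several of the 9 genes with T cells, 7 were at 0 in all 3 libraries (Eomes, Gzma, Gzmb, Klrb1c, Klrd1, Ncr1 and Prf1), of which Gzma and Prf1 were at 0 in all fed GFP libraries too. The sum of the 10 was 1.17 to 1.82 CPM against 11.4 to 33.6 in ADF GFP, 3.79 to 43.4 in fed Crtc2 and 24.2 to 67.5 in fed GFP muscle. In edgeR none of the 10 was called in either comparison, where 5 and 4 had an unadjusted p under 0.05 in the lower direction (beside 7.23% and 13.1% of all genes), and DESeq2 called 3 in each. Of the 9 B cell markers, 6 were at 0 in all ADF Crtc2 libraries (Blk, Cd79a, Cd79b, Fcer2a, Ms4a1 and Pax5). Blk was also at 0 in all ADF GFP, Fcer2a in all fed GFP, and Ms4a1 and Pax5 in all fed Crtc2 libraries. The sum of the B cell markers was 1.53 to 4.02 CPM against 8.31 to 38.8 in ADF GFP, 7.23 to 18.7 in fed Crtc2 and 13.7 to 45.5 in fed GFP muscle. Cd79b, part of the B cell receptor, had 6, 58 and 365 counts in ADF GFP muscle and was at least 33.5-fold lower in ADF Crtc2 muscle (adjusted p = 0.04825). This call was lost whichever of the 6 libraries was left out, and without ADF GFP replicate 3 the bound was 8.42-fold (adjusted p = 0.3296). Cd79b was also at least 17.6-fold lower than in fed Crtc2 muscle (adjusted p = 0.01168), a call made whichever library was left out.

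Macrophages are a known source of Cxcl16 and Ptprc. The sum of their 12 markers was 191 to 278 CPM in ADF Crtc2, 527 to 844 in ADF GFP, 224 to 331 in fed Crtc2 and 400 to 470 in fed GFP muscle, with 2 of the 12 at 0 in fed GFP replicate 3 and 1 in ADF Crtc2 replicate 2. With the Crtc2 vector under ADF all 12 were below 0 and 4 were called (beside 0.65% of all genes lower), Csf1r (-2.0 ± 0.33, adjusted p = 0.006463), C1qc, Lyz2 and Cd68. All 4 calls were lost without ADF Crtc2 replicate 1, and those of C1qc, Lyz2 and Cd68 also without ADF GFP replicate 3. Lyz2 was further lost without ADF Crtc2 replicate 3, and Cd68 without ADF Crtc2 replicate 2 or ADF GFP replicate 1. Against fed Crtc2 muscle their median was -0.42 and none was called by edgeR or DESeq2, with 1 at an unadjusted p under 0.05 in the lower direction (beside 13.1% of all genes). Of 12 genes shared by most leukocytes, 4 were lower with the Crtc2 vector under ADF, Laptm5, Cd52, Coro1a and Lcp1 (beside 0.65% of all genes). Under ADF against fed in Crtc2 muscle 3 were lower, Coro1a, Cd52 and Lcp1 (beside 4.68% of all genes). The first comparison called Laptm5 whichever library was left out and lost the other 3 without ADF Crtc2 replicate 1 or ADF GFP replicate 3, Coro1a and Lcp1 without ADF Crtc2 replicate 3, and Coro1a without ADF GFP replicate 1. The second kept Coro1a and Cd52 throughout, Cd52 at 3.22-fold in place of 5.97-fold without fed Crtc2 replicate 3, and lost Lcp1 without ADF Crtc2 replicate 1 or 3 or fed Crtc2 replicate 2 or 3. The sum of the 12 leukocyte genes was 44.2 to 64.0 CPM in ADF Crtc2 against 212 to 401 in ADF GFP muscle, 88.5 to 251 in fed Crtc2 and 191 to 239 in fed GFP. Under ADF against fed in GFP muscle the median was 0.78 for the macrophage markers, all 12 above 0, and 0.65 for the leukocyte genes. Laptm5 alone of these was called there, higher under ADF (1.16 ± 0.35, adjusted p = 0.04911), beside 7.12% of all genes. This call was lost without any one library except fed GFP replicate 1. The part of these cells in the levels of the 9 genes was not tested.

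**Figure D4:**
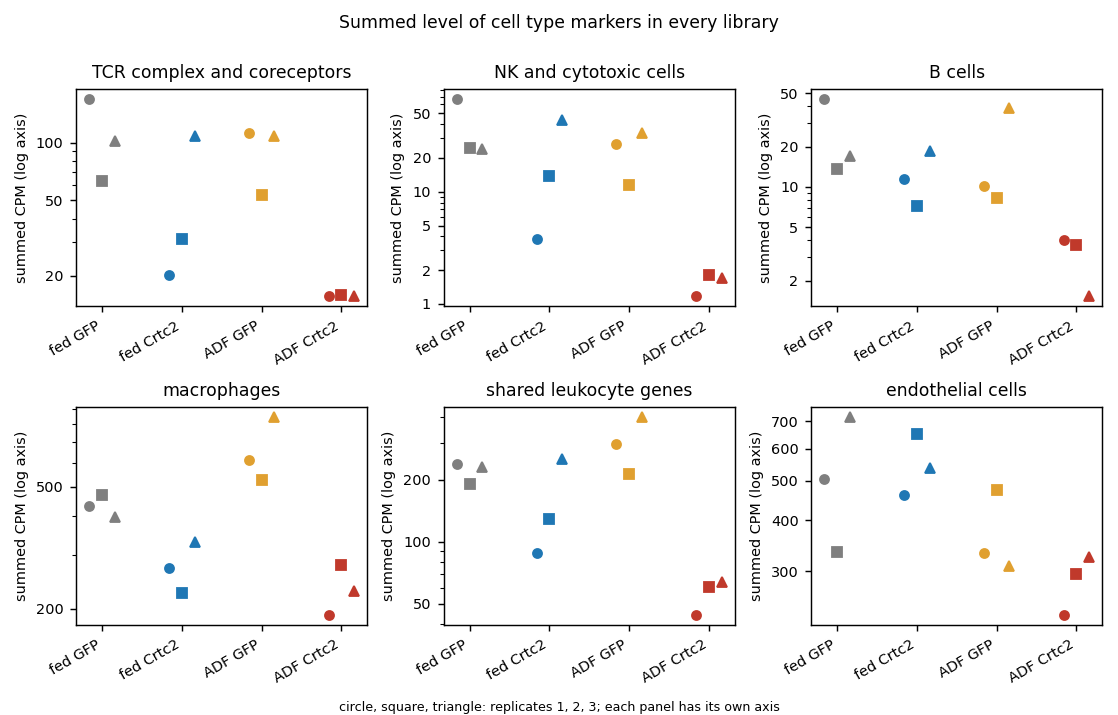
Summed CPM of the markers of 6 cell types in every library (log axis, each panel with its own), with symbols for replicates 1 to 3. The sum of the T cell receptor complex and coreceptors is 15.6 to 15.8 CPM in the ADF Crtc2 libraries and at least 20.3 CPM in all others, and for macrophages the ADF Crtc2 and fed Crtc2 libraries overlap.

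Across the 12 libraries, the pattern of log2 CPM most like that of Cd3g among 11117 other genes was that of Mov10 (Pearson r = 0.987), followed by Tapbpl (0.959), Gbp3 (0.957), Crip1 (0.94) and Ccdc88b (0.937). Among the 9 genes, Lck (0.917), Il2rg (0.908) and Cxcl16 (0.891) were closest to Cd3g, and Cd3e (0.558) and Cd247 (0.188) were farthest. Among the nearest to Ptprc were Mymk (0.869), Ptpn6 (0.865), Naaa (0.852) and Gzmb (0.851). These values describe 12 libraries that share 3 ADF Crtc2 libraries at or near 0 for many low genes, and they carry no test.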

How the data were processed

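RNA was sequenced in 12 libraries of tibialis anterior, 3 per group, grouped by their titles. The authors deposited unnormalized read counts, 1 whole number for each Ensembl gene and library. Named in the submitters' processing notes are DESeq2 1.18.1, Subread 1.6.1 with featureCounts, SAMtools 1.7 and HISAT2 2.0.5, and the builds mm10 and GRCm38. The annotation release, the strand setting and what each tool did are not given in the sources used here. Per the labels' protocols, libraries were made with a TruSeq Stranded mRNA preparation and with NEBNext Ultra II directional reagents, and which library had which is not stated. Of the table's columns, 0 belonged to no sample.

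Changes were tested in R 4.3.3 with edgeR 4.0.16: TMM scaling, filterByExpr (16007 of 22607 genes kept, 1 row without a symbol kept under its identifier), a robust quasi-likelihood fit of 4 group means over all 12 libraries, and Benjamini-Hochberg adjustment over all genes tested at 0.05. The script was tested on simulated data. Adjusted p-values are from this test unless DESeq2 (1.42.0) is named. The SE is the size of the log2 change over the square root of F. A group at 0 was given a floor of 3 counts per library, and floors and intervals cover counting error only. With 3 against 3 libraries the smallest two-sided exact p is 0.1. A prior count of 2 was used for log2 CPM.

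The 9 genes and the 14 gene lists (168 genes, 167 in the table) were chosen with earlier results of these data known. Named are the 9 genes, in each comparison up to 4 called genes of a list with the smallest adjusted p or, where none was called, its most abundant gene, the 5 genes most like Cd3g and most like Ptprc with a mean of at least 2 CPM, and Crtc2. Others are marked as named after their values were seen, and some genes that this rule names are not reported here. Positions are from GENCODE M21 on GRCm38 (22582 of 22607 genes matched), promoters from RefSeq. Alternatives were DESeq2, DESeq2 size factors in edgeR, library totals, no filter, a mean of at least 1 CPM, only the groups compared, the replicate number as a block, halved counts, and leaving out each library. Leaving out libraries for the called genes of the lists was added after seeing the data. Same-numbered libraries correlated at -0.0378 to 0.134 after removal of group means, so the numbers were not taken as pairs. No 2 libraries agreed within sampling noise (lowest chi-square per degree of freedom 50.1).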

Additional observations from a re-analysis of the deposited data

How the results depend on the processing

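The 9 genes stayed lower in ADF Crtc2 than in ADF GFP muscle in every alternative. Against fed Crtc2 muscle they did so too, except Cd3d. For the Crtc2 response under ADF, DESeq2 called 556 genes and 6 of the 9, no filter 385 and 5, only the groups compared 365 genes, and leaving out 1 library 19 to 82 genes and 1 to 2 of the 9. For ADF against fed in Crtc2 muscle, DESeq2 called 2505 genes and 6 of the 9, no filter 2083 and 5, and leaving out 1 library gave 1103 to 1477 genes. For the Crtc2 response in fed muscle, DESeq2 called 64 genes, no filter 58, only the groups compared 8, and leaving out 1 library 0 to 18. For the interaction, DESeq2 called 111 genes and 2 of the 9, no filter 67 and 1, and leaving out 1 library 0 to 3 genes. For ADF against fed in GFP muscle, leaving out 1 library gave 671 to 1246 genes. The cause was not tested. DESeq2 gave 126 higher and 430 lower genes for Crtc2 under ADF, against 12 and 104. Library totals gave 476 higher and 596 lower genes for ADF in GFP muscle, against 650 and 490, and moved the median of all genes to -0.11 there and to -0.22 for Crtc2 under ADF.

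The small changes in the comparisons without ADF Crtc2 muscle turned direction most often. Library totals turned Cd3g to -0.0623 for ADF in GFP muscle. With the replicate block, Lck turned to 0.0932 for Crtc2 in fed muscle and to 0.0203 for ADF in GFP muscle, and Cd3g to -0.10 for the latter. The replicate block called 106 genes and 2 of the 9 for Crtc2 under ADF, losing Cxcl16 (adjusted p = 0.06063), and 1664 genes and 4 of the 9 for ADF in Crtc2 muscle, adding Lck (0.02798). Of the 12 libraries, 6 were closest to one of their own number. Leaving out 1 library gave, for ADF in GFP muscle, -0.82 to 0.94 for Cd3e, -0.50 to 0.41 for Cd3g, -0.89 to 0.10 for Cxcl16, -0.55 to 0.0294 for Il2rg, -0.55 to 0.95 for Lck and -0.14 to 0.42 for Ptprc. For Crtc2 in fed muscle it gave -9.36 to 0.30 for Cd3d, -0.65 to 0.80 for Cd3g and -1.25 to 0.65 for Lck. For Cd3d it gave -9.07 to 1.99 for ADF in Crtc2 muscle and -10.32 to 0.75 for the interaction, each turning without fed Crtc2 replicate 3. The lowest counts, with a floor of 3, limit what can be said of Cd3d, Cd3e and Cd3g, and halving the counts gave 3 calls among the 9 genes for Crtc2 under ADF and 4, with Lck (adjusted p = 0.03138), for ADF in Crtc2 muscle.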

Other observations

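Genes induced by interferon gamma, a cytokine that activated T cells and natural killer cells release, were low in ADF Crtc2 muscle as well. All 12 listed genes were tested and below 0 in both comparisons with ADF Crtc2 muscle. With the Crtc2 vector under ADF the median was -1.81 and 2 genes were called (beside 0.65% of all genes lower), Gbp2 and Gbp3, which encode guanylate-binding proteins. Gbp3 was called whichever library was left out, and Gbp2 was not without replicate 1 or 3 of either ADF group. In Crtc2 muscle under ADF against fed the median was -1.99 and 7 of the 12 fell (beside 4.68% of all genes). Of these, Gbp3, Irf1 and Nlrc5 were called whichever library was left out. In GFP muscle under ADF against fed the median was -0.64 with 1 call, beside 7.12% of all genes. It was Nlrc5, which fell there too (-2.3 ± 0.48, adjusted p = 0.004489) whichever library was left out. The summed level was 68.9 to 254 CPM in ADF Crtc2, 304 to 502 in ADF GFP, 386 to 884 in fed Crtc2 and 537 to 998 in fed GFP muscle.

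Of 8 endothelial markers none was called with the Crtc2 vector under ADF by edgeR or DESeq2 (median -0.32). There 1 had an unadjusted p under 0.05 in the lower direction (beside 7.23% of all genes). In Crtc2 muscle under ADF against fed 3 fell (beside 4.68% of all genes), Egfl7 (-2.06 ± 0.26, adjusted p = 1.482e-05), Kdr and Esam. Esam was not called without ADF Crtc2 or fed Crtc2 replicate 2. Egfl7 fell under ADF in GFP muscle too (-1.81 ± 0.25, adjusted p = 9.228e-05).

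Of the dendritic cell markers, 7 of 8 were tested, with a median of -1.92 for the Crtc2 vector under ADF. Itgax alone of the 7 was called in Crtc2 muscle under ADF against fed (-4.35 ± 1.19, adjusted p = 0.01957), beside 4.68% of all genes lower. This call was lost without ADF Crtc2 replicate 1 or 3 or fed Crtc2 replicate 3 (adjusted p = 0.06194, 0.05356 and 0.06287), and in place of 20.6-fold the level was at least 61.9-fold lower without ADF Crtc2 replicate 2. Of the neutrophil markers 4 were tested, and S100a8 alone was called in that comparison, beside the same 4.68% of all genes lower. It had 456, 102 and 21 counts in fed Crtc2 muscle and 0 in all ADF Crtc2 libraries, at least 61.3-fold lower (adjusted p = 0.01441). Without fed Crtc2 replicate 1, the library that stood apart, the bound was 16.6-fold (adjusted p = 0.08016), and the call was also lost without any one ADF Crtc2 library. The median of the 4 neutrophil markers was -2.6 in that comparison, or -0.25 with bounds for genes at 0. With the Crtc2 vector under ADF it was -2.91, or -0.51 with bounds, with 3 below 0 and 1 above. Summed neutrophil markers overlapped, at 0.782 to 6.79 CPM in ADF Crtc2, 2.42 to 7.33 in ADF GFP and 3.37 to 22.5 in fed Crtc2 muscle. The 5 erythroid markers had medians of -1.0 with the Crtc2 vector under ADF, 0.0 under ADF against fed in Crtc2 muscle and 1.1 in GFP muscle. None was called by edgeR. The 10 muscle fibre markers had a median of 0.19 with the Crtc2 vector under ADF and -0.02 in Crtc2 muscle under ADF against fed. In the latter Acta1 rose (1.02 ± 0.18, adjusted p = 0.0004889) and Mylpf fell (-0.64 ± 0.19, 0.02794), beside 11% of all genes called. Both were called in GFP muscle too (1.11 ± 0.18 and -0.81 ± 0.19), beside 7.12% of all genes. Acta1 was called whichever library was left out. Mylpf was lost in GFP muscle without ADF GFP replicate 2 or fed GFP replicate 1. In Crtc2 muscle Mylpf was lost without any one library except fed Crtc2 replicate 2.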
